A study of Mus musculus with 12 samples.

Results

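The complement and coagulation factors described here are 42 genes for plasma proteins that the liver secretes, chosen by their gene symbol in a liver expression table of 18560 genes. All 42 were found, 20 of them in the complement system and 22 in coagulation, fibrinolysis and their control. The table holds 12 RNA-seq libraries from livers of mice aged 12 months, 3 in each of 4 groups. The groups are wild-type males (WT_M), males without OXR1A (genotype OXR1A-/-, OXR1A_M), wild-type females (WT_F) and females without OXR1A (OXR1A_F), and the mice without OXR1A are called knockout below. OXR1A is an isoform made from Oxr1, a gene known to protect cells from oxidative damage. The labels give neither the strain nor the design of the deleted allele, and no other allele or treatment. Whether each library comes from its own animal is not stated either, so the p-values speak only to the spread between these libraries, part of which may be technical.

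Complement is a set of plasma proteins that mark and lyse microbes and altered cells. It is set off by antibody (the classical pathway), by sugar-binding lectins or on surfaces directly (the alternative pathway). All routes lead to cleavage of C3 and then of C5, after which C5b, C6, C7, C8 and C9 join into the membrane attack complex, a pore. Coagulation is a related protease cascade that ends with thrombin turning fibrinogen into fibrin, and serpins, protein C and plasmin limit or dissolve the clot. Hepatocytes make most of these proteins. Several rise in the acute phase response, and liver transcription in rodents differs between the sexes, largely through the pattern of growth hormone release.

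The main pattern in the 42 genes was a difference between males and females in the membrane attack complex. Wild-type males had 11.2-fold more C6, 12.3-fold more C8a, 5.87-fold more C8b and 4.21-fold more C9 transcript than wild-type females. In knockout males C6 was 2.50-fold lower than in wild-type males, and it was the only member of the 42 that passed the test for the knockout in either sex. The fibrinogen chains, C5 and most clotting factors passed no test in any comparison.

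The promoter sequences of these 4 sex-different genes are shown because all 4 were higher in wild-type males than in wild-type females, and because they lie in pairs on 2 chromosomes. C6 (Entrez 12274, GRCm38 chromosome 15, 4727067 to 4804045) and C9 (Entrez 12279, chromosome 15, 6445346 to 6498825) are 1641300 bases apart. C8b (Entrez 110382, chromosome 4, 104766317 to 104804548) and C8a (Entrez 230558, chromosome 4, 104815679 to 104876487) are neighbours with 11130 bases between them. Each sequence is the 250 bases before a transcription start in RefSeq (build GRCm38.p6), read 5′ to 3′ on the strand of the gene. The starts used for C6 and C8a lie inside the gene spans given above, so part of their windows is within the gene. The regions are chr15:4726960-4727209 on the plus strand for C6, chr4:104876399-104876648 on the minus strand for C8a, chr4:104766067-104766316 on the plus strand for C8b and chr15:6445096-6445345 on the plus strand for C9. Capitals mark a match to the STAT motif searched, TTCNNNGAA.
C6: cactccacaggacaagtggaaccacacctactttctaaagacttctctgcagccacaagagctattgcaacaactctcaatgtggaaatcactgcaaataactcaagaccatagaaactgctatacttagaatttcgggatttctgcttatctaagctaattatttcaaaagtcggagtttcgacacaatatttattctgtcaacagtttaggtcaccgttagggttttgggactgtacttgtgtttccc
C8a: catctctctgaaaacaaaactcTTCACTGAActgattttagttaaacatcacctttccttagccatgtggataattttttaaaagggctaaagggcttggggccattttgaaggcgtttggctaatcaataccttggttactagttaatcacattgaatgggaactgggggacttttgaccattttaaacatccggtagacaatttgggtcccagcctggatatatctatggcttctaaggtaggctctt
C8b: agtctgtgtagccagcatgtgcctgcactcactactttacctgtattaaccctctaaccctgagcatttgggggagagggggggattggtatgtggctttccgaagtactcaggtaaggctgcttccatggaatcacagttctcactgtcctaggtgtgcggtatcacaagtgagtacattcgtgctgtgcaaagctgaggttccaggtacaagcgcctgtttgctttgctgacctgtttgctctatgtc
C9: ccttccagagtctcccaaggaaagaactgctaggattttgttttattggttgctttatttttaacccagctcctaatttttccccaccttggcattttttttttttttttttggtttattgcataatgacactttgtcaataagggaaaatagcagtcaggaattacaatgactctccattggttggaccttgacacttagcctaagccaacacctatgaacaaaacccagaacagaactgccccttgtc

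The match in C8a lies at bases -228 to -220 from the start used, and C6, C8b and C9 held none in these windows. Promoters were found for 33 of the 42 members, and 6 of those (C8a, F9, Fga, Fgb, Masp2 and Pros1) held TTCNNNGAA on either strand, against 7.02% of the 32851 promoters in the RefSeq table. The motif is its own reverse complement, so both strands give the same matches. Searches on both strands for a C/EBP motif (TTGCGCAA, in 0.164% of all promoters), an HNF4 motif (CAAAGTCCA, 0.384%), the HNF1 motif (0.00913%) and the NF-kB motif (0.14%) found none in the 33 members. A missing match says only that these letters are not in this window.

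Values are FPKM, which divide the fragments of a gene by its transcript length and by the library's mapped fragments, so levels can be compared between genes. All 42 members were above 0 in every library and all passed the filter for testing (at least 1 FPKM in at least 3 libraries), as did 11514 genes of the table. Over the 12 libraries 8 members averaged above 1000 FPKM, 23 between 100 and 1000, and 11 below 100. Fgb, the fibrinogen beta chain, was the highest at 3757 FPKM and Pros1, protein S, the lowest at 17.7. The members took up 3.06% to 5.01% of the summed FPKM of a library. The SD of log2(FPKM + 1) within a group had a median of 0.186 over the members and 0.205 over all tested genes. It was largest in Masp1 (0.83), C8a (0.725) and F5 (0.523), so differences in these 3 genes were measured least precisely.

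The libraries had FPKM sums of 526203 to 667434 and relative depths of 0.993 to 1.54 (wild-type female 1 set to 1); read totals were not used here. Oxr1 was listed at 17.9 ± 5.61 FPKM (SD, n = 3) in wild-type males and 23.4 ± 1.48 in knockout males, and at 18.5 ± 1.85 and 20.2 ± 0.642 in the females. Since every Oxr1 isoform counts toward this value, it is no check of the genotype labels. Xist, the transcript of the inactive X, was listed at 0.82 FPKM in knockout male 3 and at 0.04 to 0.08 in the other males. The Y-linked gene Eif2s3y was listed at 1.89 in wild-type female 1 and 0.85 in knockout female 1, against 0 to 0.1 in the other females. Fits without these 3 libraries are given beside the counts of members called and the results for C6, C9, Cfp, C4bp, F7 and the other pathway genes. The albumin gene Alb was between 31719.5 and 45904 FPKM in all libraries. The 7 hepatocyte markers summed to 51081 to 52375 FPKM in knockout males, below every other library. Wild-type males had 57830 to 68125, wild-type females 58719 to 65965 and knockout females 63479 to 65678. In knockout against wild-type males 5 of the 7 were lower and 2 higher (median log2 difference -0.34, against 0.19 over all genes). Their part in the member values was not tested. The 6 platelet markers summed to 1.09 to 4.05 FPKM, and the highest single value among them was 1.44 (Ppbp in knockout female 3).

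Wild-type male 2 stood apart in its trend on transcript length, and had the highest FPKM sum (667434) and relative depth (1.54). It was the lowest of the 12 libraries in 11 members, among them F5 (factor V) at 42.6 FPKM against 123 and 100.2 in the other wild-type males, and Masp1, a protease of the lectin pathway, at 4.28 against 23.8 and 23.9. Of the 13 members with a transcript of at least 3000 bases, 12 were lower in this library than the mean of the other 2 wild-type males, and of the 29 shorter members 18 were. Across the 42 genes the difference fell with transcript length (Pearson r = -0.74, Spearman rho = -0.759, across genes of the same 3 libraries, which are not independent replicates). Over all genes the slope of a library's deviation on log2 length was -0.212 in this library and -0.0905 to 0.121 in the other 11. Knockout male 2 was the lowest library in 13 members, and knockout male 1 the highest in 11.

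**Figure D1:**
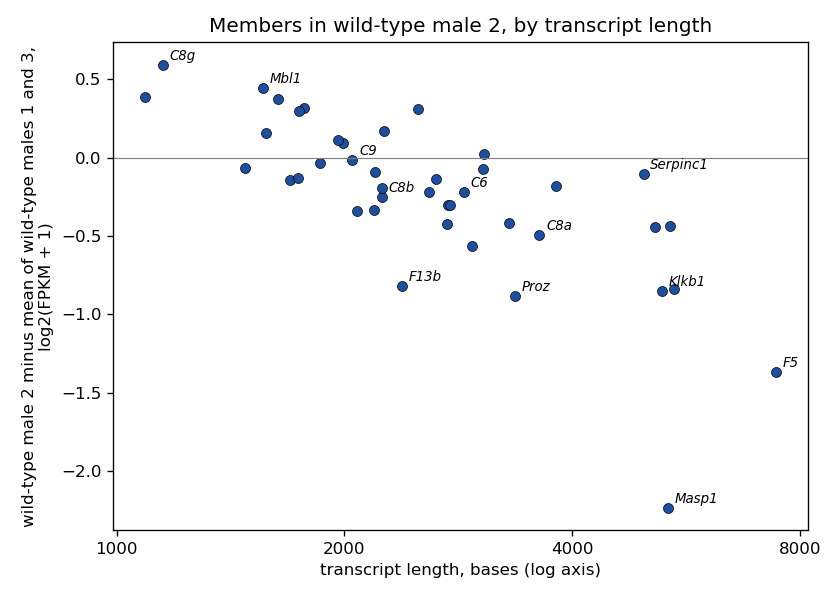
The vertical axis gives, for each of the 42 members (points), the difference in log2(FPKM + 1) between wild-type male 2 and the mean of wild-type males 1 and 3. The horizontal axis is transcript length in bases on a log axis. Of the 13 members of at least 3000 bases 12 lie below 0, with F5 at -1.37 and Masp1 at -2.24.

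The comparison of the sexes in wild-type mice asked which members depend on sex at this age. Genes were tested with limma on log2(FPKM + 1), and called at a Benjamini-Hochberg adjusted p under 0.05 over all 11514 genes. Of the 42 members 12 were called, against 13.4% of all tested genes. Higher in males were 5 members (C6, C8a, C8b, C9 and C4bp; 2.31% of all genes), and lower in males were 7 (C3, Mbl2, Cfp, F7, Serpinc1, Serpind1 and Serpinf2; 11.1% of all genes). The median log2 difference, males minus females, was -0.14 over the members and -0.21 over all tested genes. After median-ratio scaling of the libraries the median over all genes was 0.03 and over the members 0.16, the members called were 7 (C4bp, C6, C8a, C8b, C9, Cfp and Mbl2), and the calls over all genes went from 266 higher and 1273 lower in males to 618 higher and 456 lower. In the knockout mice 6 members were called (C6, C8a, C9 and C4bp higher in males, Mbl2 and F7 lower), against 3.67% of all genes (1.67% higher and 2.01% lower), and the median was -0.11 over the members and -0.0053 over all genes. The sexes did not overlap in 20 members in wild type (6 higher and 14 lower in males) and in 15 in knockout (4 and 11), against 40.2% and 22.1% of all genes. Without the 3 libraries that showed the other sex's transcripts 5 members were called in wild type (C6, C8a, C8b, C9 and Mbl2) and 2 in knockout (C6 and Mbl2). Over all 11514 genes the calls went from 1539 to 525 in wild type and from 423 to 123 in knockout. In this bulk tissue, fewer cells of a type and less RNA per cell cannot be told apart.

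**Figure D2:**
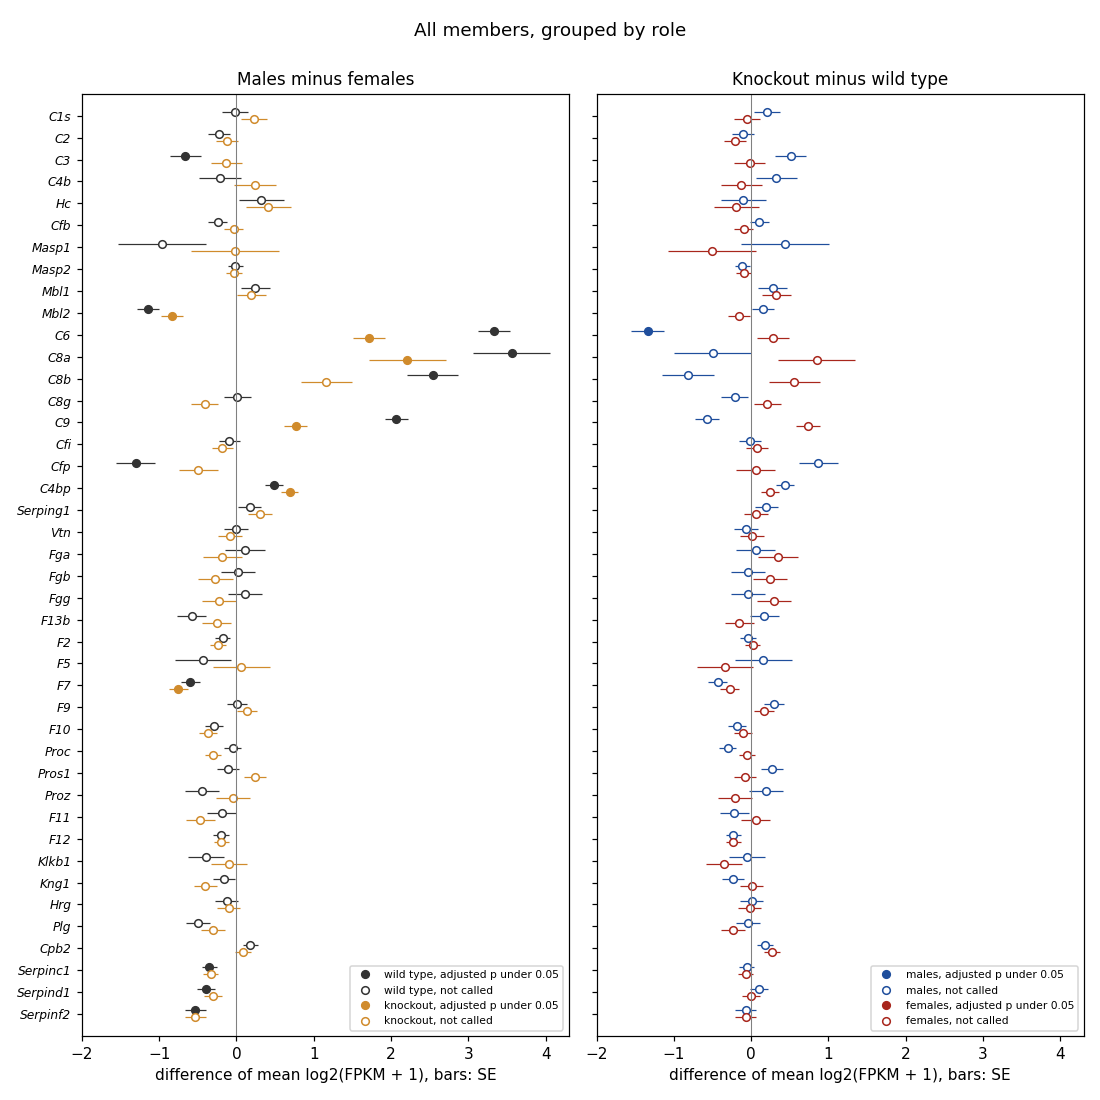
Each of the 42 members is shown in order of role by its difference in mean log2(FPKM + 1) with its SE (bars), males minus females on the left (wild type black, knockout orange) and knockout minus wild type on the right (males blue, females red). Filled points had an adjusted p under 0.05, and C6, C8a, C8b and C9 lie farthest to the right in the comparison of the wild-type sexes, at 2.07 to 3.56.

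C6 binds the C5b fragment and starts the assembly of the pore. In wild-type males it was listed at 84.2, 76.2 and 94.1 FPKM, and in wild-type females at 8.67, 6.1 and 7.87. The knockout males had 35.7, 22.9 and 43.2, and the knockout females 10.1, 7.84 and 10.2. No library of one sex reached a library of the other, and the knockout males lay between the wild-type males and the females, with no overlap on either side. The log2 difference between males and females was 3.33 (SE 0.21, adjusted p = 3.58e-06 by limma) in wild type and 1.71 (SE 0.21, adjusted p = 0.000791) in knockout, a 3.61-fold difference of means. Both were called under all 23 alternatives run.

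C8 is a complex of an alpha, a beta and a gamma chain, and the alpha chain, made from C8a, is the first to enter the membrane. C8a was listed at 283, 189.9 and 255 FPKM in wild-type males and at 24.2, 19.8 and 15.0 in wild-type females. In the knockout the males had 302, 69.3 and 229 and the females 44.0, 55.3 and 18.5. The sexes did not overlap in either genotype, but knockout male 2 was close to the highest knockout female. The log2 difference between the sexes was 3.56 (SE 0.50, adjusted p = 0.00105) in wild type and 2.21 (SE 0.50, adjusted p = 0.0306) in knockout. The knockout call held in 7 of the 12 fits that left out 1 library: the adjusted p was 0.05 without wild-type male 3, 0.124 without knockout male 1, 0.0971 without knockout male 3, 0.0794 without knockout female 1 and 0.114 without knockout female 3. C8a overlaps the gene Fyb2 in the annotation, and no source used here says whether counting was by strand.

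C8b, which makes the chain that binds the forming complex, had 175, 148 and 177 FPKM in wild-type males and 34.1, 30.2 and 20.7 in wild-type females. The knockout males had 112, 57.7 and 127 and the knockout females 40.3, 64.7 and 27.1. The sexes were apart in wild type, while in knockout the lowest male lay below the highest female. Its log2 sex difference was 2.54 (SE 0.33, adjusted p = 0.00064) in wild type and 1.16 (SE 0.33, adjusted p = 0.0866) in knockout. The gamma chain C8g, a small lipocalin on chromosome 2 that overlaps Fbxw5, showed no such difference: it was listed at 179, 276 and 186 FPKM in wild-type males and 206, 197 and 222 in wild-type females, a log2 difference of 0.01 (SE 0.18, adjusted p = 0.972). The proportion of the 3 C8 transcripts thus differed between the sexes, while the protein chains were not measured. C8a over C8g was 0.688 to 1.58 in the males and 0.0678 to 0.117 in the females of the wild type, and 0.41 to 1.9 and 0.079 to 0.203 in those of the knockout.

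C9 forms the ring of the pore. It was listed at 324, 312 and 308 FPKM in wild-type males and at 63.3, 85.9 and 75.1 in wild-type females. The knockout males had 223, 169.7 and 249.9 and the knockout females 121, 134 and 118. The 4 groups did not overlap anywhere, and both knockout groups lay between the wild-type males and the wild-type females. The log2 sex difference was 2.07 (SE 0.15, adjusted p = 8.56e-06) in wild type and 0.77 (SE 0.15, adjusted p = 0.0173; 1.73-fold) in knockout. The call in knockout was lost without knockout male 1 (adjusted p = 0.0687), knockout male 3 (0.0587), knockout female 1 (0.0736) or knockout female 3 (0.0709). It was also lost after median-ratio scaling (0.0565), with only the knockout groups in the fit (0.0679) and without the 3 libraries that showed the other sex's transcripts (0.198). C7, which joins the complex between C6 and C8, was between 0.12 and 0.48 FPKM in all libraries and was not tested.

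**Figure D3:**
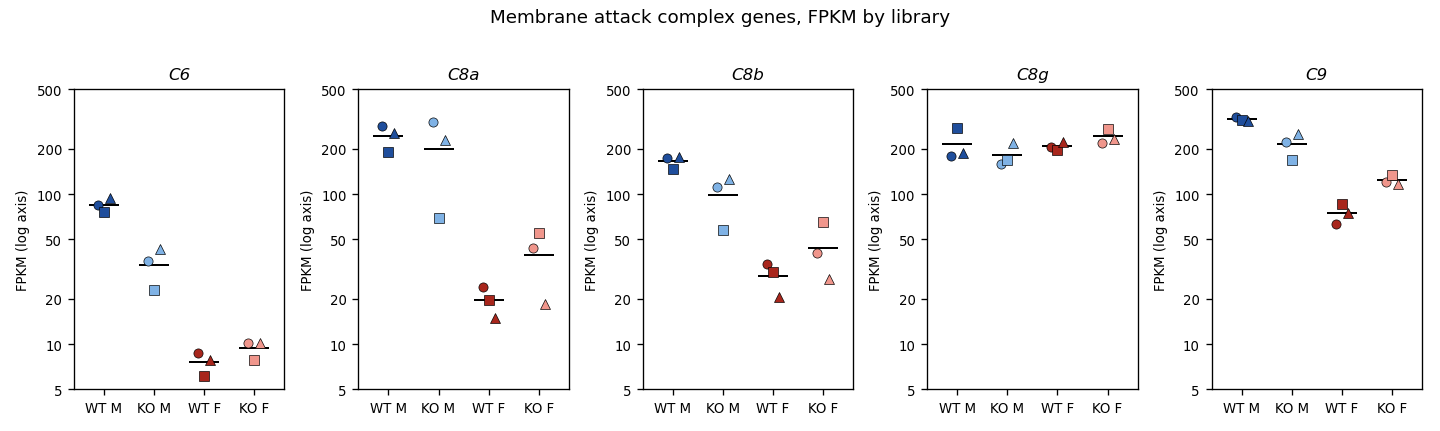
FPKM on a log axis of C6, C8a, C8b, C8g and C9 in each library (circle, square and triangle are replicates 1, 2 and 3; the bar is the mean of 3) of the 4 groups (WT wild type, KO knockout, M males, F females). The wild-type males lie above the wild-type females without overlap in all panels but that of C8g, and the mean of C6 is 84.8 in wild-type and 33.9 in knockout males.

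The comparison of knockout with wild-type males addressed whether loss of OXR1A changes these genes. C6 fell from 84.8 ± 8.96 to 33.9 ± 10.3 FPKM (SD, n = 3 each), a log2 difference of -1.34 (SE 0.21, adjusted p = 0.0112 by limma). It was the 1 call among the 42 members, against 2.55% of all tested genes (2.13% higher and 0.426% lower). All 3 knockout males were below all 3 wild-type males. It missed the threshold when wild-type male 3 was left out (adjusted p = 0.0565), with only the male groups in the fit (0.117) and with library weights (0.0585). It held in the other 20 of 23 alternatives, with log2 differences of -1.58 to -1.09 over all 23. Without knockout male 2, the lowest in C6, it was -1.09 (adjusted p = 0.0229), and without the 3 libraries that showed the other sex's transcripts -1.53 (adjusted p = 0.0254).

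The other pore genes passed no test for the knockout in males, and their values were as follows. C9 averaged 315 ± 8.27 FPKM in wild-type and 214 ± 40.8 in knockout males, without overlap (log2 difference -0.57, SE 0.15, adjusted p = 0.0655); leaving out knockout male 3 gave an adjusted p of 0.0374. C8b averaged 167 ± 16.5 and 98.9 ± 36.4, again without overlap (-0.82, SE 0.33, adjusted p = 0.166). C8a averaged 242 ± 47.5 and 200.1 ± 119, with overlap (-0.50, SE 0.50, adjusted p = 0.542).

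Over all 42 members the median log2 difference in males was -0.04, with 19 members above 0 and 23 below, while over all tested genes it was 0.19. After median-ratio scaling these medians were -0.29 and -0.0014, C6 was again the 1 member called, and the calls over all genes went from 245 higher and 49 lower to 68 higher and 77 lower. The sign of the median over the members also turned, to 0.10, without knockout male 2. In 10 members the groups did not overlap, 4 higher and 6 lower in knockout, against 23.7% of all tested genes. Of the 22 coagulation, fibrinolysis and serpin members none was called, and 4 had an unadjusted p under 0.05, as did 23.9% of all genes.

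In females no member of the 42 was called for the knockout (limma), against 0.0174% of all tested genes, and 4 had an unadjusted p under 0.05, as did 6.13% of all genes. These were C9, Cpb2, F12 and F7. C9 averaged 74.8 ± 11.3 FPKM in wild-type and 124 ± 8.61 in knockout females, 1.66-fold higher without overlap (log2 difference 0.73, SE 0.15, adjusted p = 0.364). With library weights its adjusted p was 0.0274, a setting under which 1.99% of all genes were called. Without the 3 libraries that showed the other sex's transcripts it was 0.927 (log2 difference 0.64), and again no member was called. Cpb2, the carboxypeptidase TAFI that slows clot lysis, averaged 267 ± 15.4 and 323 ± 17.4 FPKM (adjusted p = 0.78). The log2 medians were -0.02 over the members and 0.003 over all genes. In 12 members the female groups did not overlap, 4 higher and 8 lower in knockout, against 17.6% of all genes.

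The interaction, the knockout effect in males minus that in females, passed the test for none of the 42 members (0.0261% of all genes did), and 4 had an unadjusted p under 0.05, as did 9.03% of all genes. For C6 it was -1.62 (SE 0.30, adjusted p = 0.123), and for C9 -1.30 (SE 0.22, adjusted p = 0.07). C8b had -1.38 (SE 0.47, adjusted p = 0.533) and Cfp 0.81 (SE 0.36, adjusted p = 0.544). Without knockout male 3 the adjusted p was 0.0349 for C6 and 0.0345 for C9, and without the 3 libraries that showed the other sex's transcripts it was 0.174 and 0.187.

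Among the early components, C3, the hub of all pathways, was listed at 1500.0, 1142 and 1615 FPKM in wild-type males and at 2354, 2355 and 1983 in wild-type females. The knockout males had 2715, 1603 and 1845 and the knockout females 2395, 1934 and 2286. Wild-type males were below wild-type females without overlap, 1.57-fold (log2 difference -0.66, SE 0.20, adjusted p = 0.049). This call stood at the threshold: among the fits that left out 1 library it held only without knockout male 1 or knockout male 2, and it reached an adjusted p of 0.143 without wild-type female 2 and 0.293 after median-ratio scaling. In knockout against wild-type males C3 had a log2 difference of 0.51 (adjusted p = 0.152). The other members at this stage are C1s (a protease of the first component), C2, C4b, Hc (the mouse C5) and Cfb (factor B of the alternative pathway), which averaged between 35.0 and 502 FPKM in the wild-type groups. None of these 5 was called in any comparison. C4b has a near-identical neighbouring copy, and C1s has a second copy, so their reads could be split between copies.

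In the lectin pathway, Mbl2, one of the mannose-binding lectins that recognise microbial sugars, was lower in males. It was listed at 222, 306 and 246 FPKM in wild-type males and 538, 598 and 559 in wild-type females. In knockout the males had 255, 291 and 307 and the females 441, 526 and 558. All 6 males were below all 6 females. The log2 difference was -1.14 (SE 0.14, adjusted p = 0.00047) in wild type and -0.83 (SE 0.14, adjusted p = 0.00687) in knockout, 2.19-fold and 1.79-fold. After median-ratio scaling the call in knockout was lost (adjusted p = 0.0578). Mbl1, the other mannose-binding lectin, averaged 172 ± 32.7 FPKM in wild-type males and 145 ± 20.3 in wild-type females and was not called (0.24, SE 0.19, adjusted p = 0.384). Mbl2 over Mbl1 was 1.39 to 1.66 in wild-type males and 3.33 to 4.37 in wild-type females. The proteases Masp1 and Masp2, which the lectins activate, were called in no comparison, and Masp1 varied most within groups.

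Of the complement regulators, properdin (Cfp, on the X chromosome), which stabilises the alternative pathway convertase, was lower in wild-type males. It had 8.56, 12.9 and 11 FPKM there against 27.3, 22.7 and 34.6 in wild-type females, 2.61-fold without overlap (log2 difference -1.30, SE 0.25, adjusted p = 0.00739). This call held in 22 of 23 alternatives. Without the 3 libraries that showed the other sex's transcripts it was lost (adjusted p = 0.0603 by limma). The knockout males had 13.8, 30.7 and 19.6 and the knockout females 26.7, 27.0 and 33.8. The knockout males lay above the wild-type males without overlap (0.87, SE 0.25, adjusted p = 0.0819), and among them the highest was knockout male 2. Properdin is made by macrophages and other white cells as well, and markers of Kupffer cells, the macrophages of the liver, moved the same way. All 11 tested markers were lower in wild-type males than in wild-type females, 7 of them called (Cd5l, Vsig4, Emr1, Timd4, Clec4f, Csf1r and Cd68). Over all genes 11.1% were called lower. The median log2 difference was -1.22 over the 11 and -0.21 over all genes. In knockout against wild-type males all 11 were higher, 6 of them called, against 2.13% of all genes called higher. The median there was 1.28 over the 11 and 0.19 over all genes. Summed over the 11 markers, wild-type males had 125 to 196 FPKM and knockout males 270 to 666, with the highest in knockout male 2. Wild-type females had 320 to 495 and knockout females 363 to 539. Their part in the Cfp values was not tested.

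C4bp, the C4b-binding protein that stops the classical pathway convertase, was higher in males. Wild-type males had 249, 253 and 282 FPKM and wild-type females 179, 190.4 and 189 (log2 difference 0.49, SE 0.12, adjusted p = 0.0203). Knockout males had 410.2, 318 and 341 and knockout females 209, 219.9 and 231 (0.69, SE 0.12, adjusted p = 0.00652). The wild-type call was lost without wild-type male 3 (adjusted p = 0.0668), wild-type female 1 (0.0798) or wild-type female 2 (0.0615). It was also lost after quantile normalization. The knockout call held in all 12 fits that left out 1 library, but not with only the knockout groups in the fit. Without the 3 libraries that showed the other sex's transcripts both calls were lost. Over the alternatives the adjusted p by limma reached 0.131 in wild type and 0.136 in knockout. In males the knockout lay above the wild type without overlap, 1.36-fold, and missed the threshold (0.44, SE 0.12, adjusted p = 0.0636). Factor I (Cfi), the C1 inhibitor Serping1 and vitronectin (Vtn) were called in no comparison.

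The fibrinogen chains are the most abundant members and were called in no comparison. Fgb was listed at 3685, 3297 and 3804 FPKM in wild-type males and at 4565, 2414 and 3844 in knockout males. In females it was 3017, 3290.4 and 4497 in wild type and 4555, 4286 and 3829.9 in knockout. Knockout male 1 was the highest and knockout male 2 the lowest of the males, so the knockout males spanned the whole range. The transcripts of the 3 chains kept their proportion: Fga over Fgb was 0.512 to 0.668 and Fgg over Fgb 0.671 to 0.767 in the 12 libraries. The 3 genes lie side by side on chromosome 3, with 11096 bases between Fgg and Fga and 8618 between Fga and Fgb. F13b, the carrier chain of the factor that cross-links fibrin, averaged 96.3 ± 29.2 FPKM in wild-type males (63.3 in male 2) and 139 ± 1.42 in wild-type females (log2 difference -0.58, adjusted p = 0.0609).

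**Figure D4:**
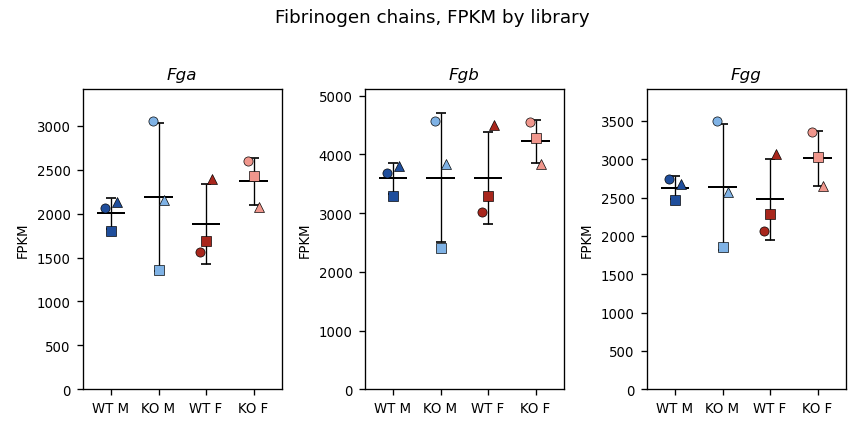
FPKM (linear axis from 0) of the fibrinogen genes Fga, Fgb and Fgg in each library (circle, square and triangle are replicates 1, 2 and 3; bars give the mean and SD of 3). Knockout male 1 is the highest and knockout male 2 the lowest male in each panel, and for Fgb these values are 4565 and 2414.

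Of the vitamin K dependent factors and cofactor V, 8 genes, only F7 was called. Factor VII, which starts coagulation with tissue factor, was lower in males in both genotypes. Wild-type males had 34.5, 33.4 and 34.1 FPKM and wild-type females 58.6, 52.6 and 45.5 (log2 difference -0.60, SE 0.12, adjusted p = 0.00966; 1.54-fold). Knockout males had 27.1, 21.9 and 25.9 and knockout females 42.2, 39.7 and 46.3 (-0.76, SE 0.12, adjusted p = 0.00502; 1.71-fold). No male library reached a female one. Both calls held in all 12 fits that left out 1 library, but the wild-type call was lost after median-ratio scaling (-0.30, adjusted p = 0.233). It was also lost after quantile normalization and with the length trend removed. Without the 3 libraries that showed the other sex's transcripts both calls were lost (adjusted p = 0.0759 in knockout). Knockout males were below wild-type males without overlap, which missed the threshold (adjusted p = 0.0743). F10, its neighbour 1498 bases away and the enzyme that makes thrombin, averaged 168 ± 22.1 FPKM in wild-type males and 205 ± 6.51 in wild-type females (adjusted p = 0.107). Prothrombin (F2), F9, protein C (Proc), protein S (Pros1), protein Z (Proz) and F5 were not called either. Proc had values of 216 to 241 FPKM in knockout males and 262 to 301 in wild-type males (adjusted p = 0.123).

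None of the 5 contact system genes was called. Factor XII (F12), which starts this pathway on charged surfaces, averaged 199 ± 13.7 FPKM in wild-type and 169 ± 3.79 in knockout males, and 228 ± 7.85 and 194 ± 12.1 in the females. The knockout was lower without overlap in both sexes, with adjusted p of 0.186 and 0.793. F11, plasma kallikrein (Klkb1), kininogen (Kng1) and the histidine-rich glycoprotein (Hrg) were called in no comparison, and reads of Kng1 could be shared with its near-copy Kng2.

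Among plasminogen and the inhibitors, 3 serpins were lower in wild-type males than in wild-type females. Antithrombin (Serpinc1), the main inhibitor of thrombin, had 957, 913 and 1006 FPKM in males and 1219.6, 1216 and 1229 in females (log2 difference -0.35, SE 0.09, adjusted p = 0.0326). Heparin cofactor II (Serpind1) had 278, 219 and 274 against 348, 329.6 and 333 (-0.40, SE 0.12, adjusted p = 0.0459). Antiplasmin (Serpinf2) had 256, 257 and 292 against 396, 362 and 407 (-0.53, SE 0.13, adjusted p = 0.0251). In each of these genes the sexes did not overlap. The calls depended on the scaling: after median-ratio scaling the differences were -0.05, -0.09 and -0.23, with adjusted p of 0.857, 0.626 and 0.392. Leaving out any 1 wild-type library ended the call of Serpinc1 (adjusted p up to 0.102), leaving out any wild-type library except male 1 that of Serpind1 (up to 0.135), and any except male 3 that of Serpinf2 (up to 0.0855). Leaving out some knockout libraries did so too: for Serpinc1 these were females 1 (0.0507) and 3 (0.0539), and for Serpind1 male 1 (0.0566) and females 1 (0.0648), 2 (0.0609) and 3 (0.062). Plasminogen (Plg) averaged 888 ± 117 FPKM in wild-type males and 1248 ± 34.4 in wild-type females (-0.50, SE 0.16, adjusted p = 0.0567). Serpind1 overlaps Pi4ka in the annotation.

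**Figure D5:**
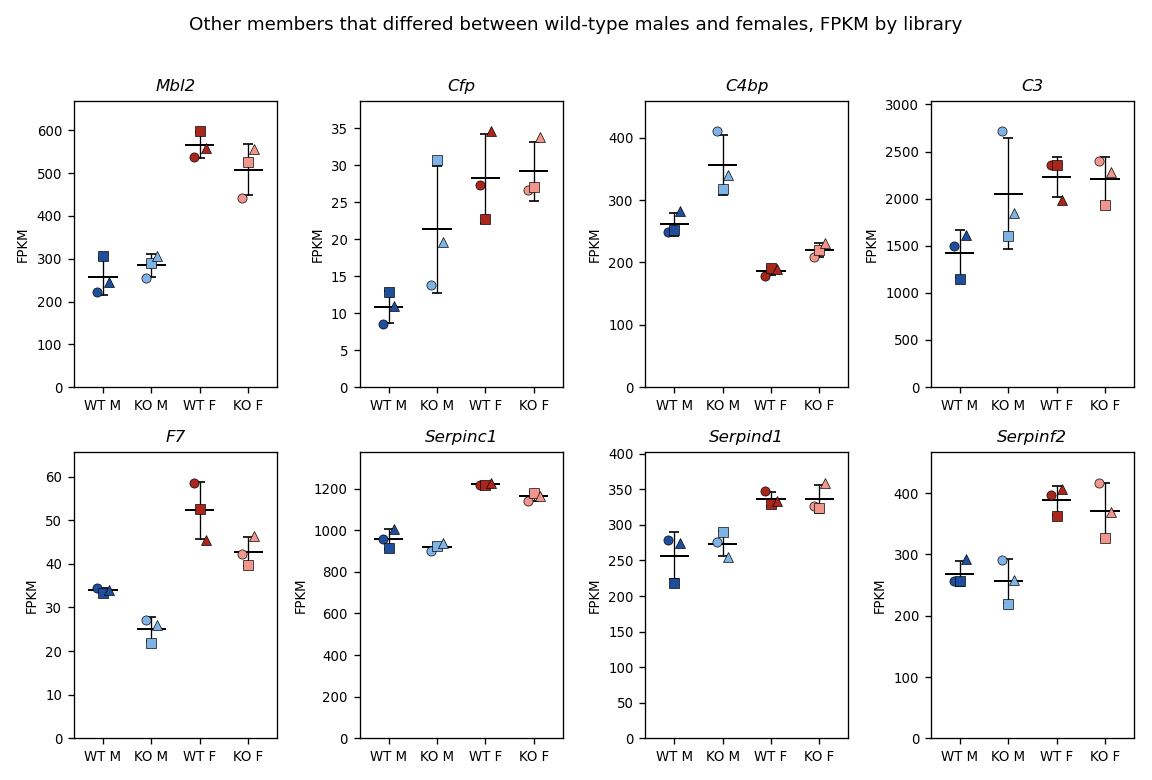
FPKM (linear axes from 0) in each library of the 8 other members called between the wild-type sexes (circle, square and triangle are replicates 1, 2 and 3; bars give the mean and SD of 3). C4bp is higher in wild-type males and the other 7 are lower, and in none of the 8 panels do wild-type males and females overlap.

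Other genes of the pathways were taken from lists of 28 complement and 30 coagulation and fibrinolysis genes in the table, of which 22 and 19 passed the filter. In knockout against wild-type males 4 other complement genes were called higher and none lower. Cd55, a regulator on cell surfaces, went from 4.96 to 9.88 FPKM (adjusted p = 0.0296 by limma). The collectins Colec10 and Colec11 went from 4.46 to 8.73 (0.0276) and from 14.4 to 24.1 (0.0463). Vsig4, the C3b receptor of Kupffer cells, went from 18.6 to 37.7 (0.0276). Over all genes 2.13% were called higher and 0.426% lower, and the median was 0.26 over the 22 genes and 0.19 over all genes. After median-ratio scaling only Colec10 of these 4 was called (adjusted p = 0.0418). Without the 3 libraries that showed the other sex's transcripts none of the 4 was called, with adjusted p of 0.0634 to 0.105. In that fit 125 of all genes were called, in place of 294. Among the fits that left out 1 library Vsig4 was called in 9 of 12, Colec10 in 8, Cd55 in 7 and Colec11 in 1 (without knockout male 3, 0.0281); all 4 were lost without knockout male 2 (0.0771 to 0.121) or wild-type male 3 (0.0665 to 0.116). Vsig4 stands in the Kupffer cell list too, and that list's sums, given with Cfp, moved the same way; their part was not tested. Between the wild-type sexes 8 of the 22 were called lower in males (C1qc, Cd55, Cr1l, C3ar1, Fcna, Colec10, Colec11 and Vsig4). Cfd, the fat cell protease factor D, was called higher, at 1.79 ± 0.41 against 0.283 ± 0.36 FPKM. Over all genes 11.1% were called lower and 2.31% higher. Without the same 3 libraries C1qc, Cd55 and Cr1l were no longer called (adjusted p 0.103 to 0.163). Cfd was also higher in knockout males than in knockout females (2.09 ± 0.34 and 0.137 ± 0.12, adjusted p = 0.00163 by limma). It passed the filter of 1 FPKM only through the males (1.33 to 2.41 FPKM, against 0 to 0.69 in the females). The filter thus favoured a sex difference in Cfd, and its values lie near the floor.

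Among the 19 other coagulation and fibrinolysis genes none was called for the knockout in males (limma; 8 had an unadjusted p under 0.05, as did 23.9% of all genes) or in females (1 had). The lowest adjusted p in males was that of Serpina10, the inhibitor that works with protein Z, at 90.0 ± 7.4 and 127 ± 17 FPKM (adjusted p = 0.0532). Between the wild-type sexes the thrombin receptor F2r was higher in males, and tissue factor (F3), thrombomodulin (Thbd), Kng2 and Itih2 were lower. Tissue factor averaged 1.49 ± 0.32 FPKM in wild-type males and 3.46 ± 0.93 in wild-type females (adjusted p = 0.0157). Without the 3 libraries that showed the other sex's transcripts none of these 5 was called (0.06 to 0.154). Sinusoidal endothelium, which carries thrombomodulin, had all 12 markers lower in wild-type males than in wild-type females. Of these 10 were called, against 11.1% of all genes called lower. In knockout against wild-type males all 12 were higher, 6 of them called, against 2.13% of all genes called higher. Summed, wild-type males had 110 to 128 FPKM, knockout males 171 to 195 and the females 203 to 242. The part of the endothelium in these values was not tested.

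Acute phase genes, which share cytokine control with fibrinogen and C3, were followed as a list of 15 beside the members. In knockout against wild-type males 4 of the 15 were called higher (Lcn2, Orm2, Orm3 and Apcs), against 2.13% of all genes, and none lower. In females 1 was called higher (Orm2), against 0.0174% of all genes called in either direction. In each sex 14 of the 15 differences were above 0. The medians of the 15 on the log2 scale were 0.98 in males and 0.59 in females, against 0.19 and 0.003 over all genes. Summed over the 15 genes, wild-type males had 7707 to 13731 FPKM and knockout males 10013 to 21954. Wild-type females had 6586 to 9249.5 and knockout females 11636 to 12534. Knockout male 2, the lowest male in the 3 fibrinogen genes, had the lowest sum of the knockout males. Other libraries went the other way. Wild-type male 2, the lowest wild-type male in the 3 fibrinogen genes, had the highest sum of the wild-type males (13731). The highest sum was that of knockout male 3 (21954), while knockout male 1, the highest male in fibrinogen, had 16985.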

How the data were processed

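Liver RNA of 12 libraries was profiled. Per the labels' protocols, total RNA was isolated, poly(A) RNA was captured and amplified cDNA was circularised. The deposited values are FPKM per the file headers; TopHat 2 and build mm 10 are named in the submitters' processing notes, and no source used here gives the quantifier, filters, strand setting or read totals.

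The 11514 of 18560 genes that reached 1 FPKM in 3 or more libraries were tested on log2(FPKM + 1), a scale that understates changes of low genes, with limma 3.58.1 in R 4.3.3. The model had 1 mean per group over all 12 libraries and a variance trend, tests were two-sided, and p-values were Benjamini-Hochberg adjusted over all 11514 genes (called under 0.05). Folds are ratios of mean FPKM. Relative depth is the inverse of the most frequent ratio of a library's low values to those of wild-type female 1. No 2 libraries shared more than 0.295% of values over 5092 genes.

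Members and lists were chosen with earlier results of these data known. Values per library are given for members called in any comparison and up to 4 with the smallest p in each; of other pathway genes, those called. C7, C8g, Fgb, F13b, F10, Proc, Plg and Mbl1 were added after their values were seen. Coordinates and promoters came from RefSeq (GRCm38), matched by Entrez number for 18498 genes. Same-numbered libraries deviated together in some pairs and not in others (correlations -0.322 to 0.561), so the numbers were not taken to pair samples. Alternatives were another pseudocount (0.1), no filter, a mean of at least 5 FPKM, 2 scalings, only the groups compared, no trend, library weights, a replicate block, each library or 3 libraries left out and, chosen after seeing the data, removal of the trend on transcript length.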

Additional observations from a re-analysis of the deposited data

Results flagged for a closer look

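C9 is listed here because the knockout libraries lay on opposite sides of the wild type in the sexes. All 3 knockout males (169.7 to 249.9 FPKM) were below all 3 wild-type males (308 to 324), and all 3 knockout females (118 to 134) were above all 3 wild-type females (63.3 to 85.9). The difference between the knockout effects was -1.304 on the log2 scale (SE 0.22, unadjusted p = 6.68e-05, adjusted p = 0.07 by limma), which missed the threshold; over the alternatives the adjusted p was 0.0345 (without knockout male 3) to 0.229.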

How the results depend on the processing

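None of the 30 named gene results changed direction under any alternative, while the medians over the members did under some, as given below. Of these 30 results 19 were called; 6 were called under every alternative (C6, C8a, C8b, C9 and Mbl2 between the wild-type sexes, C6 between the knockout sexes), and 11 in every fit that left out 1 library. In what follows brackets give the calls over all genes in the same fit. Members called for the knockout in males numbered 1 (294), but 0 with only the groups compared (3) or with library weights (63). The count was 0 to 2 with 1 library left out (58 to 570). With the length trend removed (292 of 11362 genes) it was 5, namely C6, C9, F12, F7 and Proc. The median over the members (-0.0408) was -0.2865 after median-ratio scaling, -0.2159 with the length trend removed and -0.1165 to 0.1002 with 1 library left out. For the knockout in females library weights gave 1 call (C9) in place of 0, and 1.99% of all genes in place of 0.0174%. For the interaction the count of 0 (3) became 0 to 2 with 1 library left out (1 to 22). With the replicate block (5) it was 1, C6, with an adjusted p of 0.0371 by limma. The median (0.0093) became -0.2617 after median-ratio scaling and -0.178 with the length trend removed. Between the wild-type sexes the count of 12 (1539) became 7 after median-ratio scaling (1074). It was 5 without knockout male 3, wild-type female 1 and knockout female 1 together (525). With 1 library left out it was 7 to 13 (675 to 2081), and 7 without wild-type female 1 (708) or wild-type female 2 (675). The median (-0.1432) became 0.1617 after median-ratio scaling, -0.2325 after quantile normalization and 0.05975 with the length trend removed. Between the knockout sexes the count of 6 (423) became 3 with only the groups compared (216) and 10 with library weights (675). It was 2 without the same 3 libraries together (123) and 4 to 9 with 1 library left out (201 to 637). The median over the members was -0.2309 to -0.01723. The replicate block gave 1, 0, 1, 10 and 7 members called in the 5 comparisons, and 132, 2, 5, 1182 and 349 of all genes. The replicate numbers were not shown to pair samples. The causes of these changes were not tested. With 3 libraries a group and unknown read totals, small differences in Masp1, C8a and F5 were not detectable.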

Other observations

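C4a, the sex-limited protein gene, is the near-identical neighbour of C4b and no member; it was chosen after its values were seen. It was listed at 13.6, 8.99 and 8.27 FPKM in wild-type males, 7.78, 3.65 and 5.02 in knockout males, 1.14, 1.01 and 0.99 in wild-type females and 1.47, 1.11 and 1.28 in knockout females. Wild-type males were above wild-type females (log2 difference 2.44, adjusted p = 4.17e-05 by limma), and the knockout males were below the wild-type males without overlap but not called (-0.82, adjusted p = 0.0664). Reads could be split between C4a and C4b.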
